A study of Saccharomyces cerevisiae with 4 samples.

Results

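The genes described are the ribosomal protein genes of budding yeast that carry an intron, chosen as every gene with a line in the deposited splicing table whose name in the R64 annotation is RPL or RPS and a number, with or without the copy letter A or B, or one of the stalk protein names. RPL22A, RPL22B, RPL30, RPS14A, RPS14B, RPS9A and RPS9B were left out. This gave 94 of the 6659 genes with an expression value, namely 53 genes of the large subunit, 40 of the small subunit and the stalk protein gene RPP1B. They hold 97 of the 298 lines of the splicing table, because RPL7A, RPL7B and RPS22B have more than 1 line each. The series names 137 ribosomal protein genes, of which 36 had no line in the splicing table. Among the 94 genes, 86 form 43 pairs of A and B copies, and RPL25, RPL28, RPL29, RPL32, RPL39, RPP1B, RPS13 and RPS22B stand alone.

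RNA was sequenced from 4 haploid strains of the BY4741/2 background, all his-ura-leu-, harvested in mid-log growth in rich dextrose medium. They were the wild type (WT), a strain with SNF2 replaced by NatMX (snf2∆), a strain with UME6 replaced by KanMX (ume6∆) and a strain with both replacements (ume6∆snf2∆). Each strain is represented by 1 library, so no value below has a replicate error, and no test between strains is possible. Counting intervals are 95% Clopper-Pearson intervals on recovered reads and cover counting error only. The comparisons address how the level and splicing of these transcripts differ without Snf2, without Ume6, and without Snf2 in cells that also lack Ume6.

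Ribosomal protein genes are the most strongly transcribed family of growing yeast cells, and a large share of all pre-mRNA splicing events in the cell takes place on their transcripts. Their introns carry a 5′ splice site read by the U1 and U6 snRNAs, a branch site read by the U2 snRNA and a 3′ splice site, and most of the genes exist as an A and a B copy that encode nearly the same protein. Snf2 is the ATPase of the Swi/Snf chromatin remodeller, and Ume6 is the DNA-binding repressor that recruits Rpd3 and Isw2 to early meiotic genes. Levels are given in RPKM, reads scaled to gene length and to library size, and the splicing fraction is the deposited splicing efficiency per intron, between 0 and 1, with higher values for more complete splicing.

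The libraries held between 17.4 and 30.2 M reads, judged from the size of a single read in the RPKM values, and the 94 genes had at least 472 reads in every library. SNF2 had 67.9 RPKM in WT, 0.107 in snf2∆, 36.9 in ume6∆ and 0.157 in ume6∆snf2∆. UME6 had 34.6 in WT, 19.6 in snf2∆, 0.0132 in ume6∆ and 0.137 in ume6∆snf2∆. Both thus followed the strain names, and each was also below WT in the single deletion of the other gene. The 6 genes listed as markers of a cells summed to 1018 RPKM in WT, 24.3 in snf2∆, 930.1 in ume6∆ and 83.1 in ume6∆snf2∆. The 4 genes listed as markers of alpha cells summed to 41.6 RPKM in WT, 2819 in snf2∆, 25.7 in ume6∆ and 8265 in ume6∆snf2∆, and no marker of either list was at 0. Mating type thus changes together with SNF2 in these libraries, and the effects of both cannot be told apart wherever a strain with SNF2 is set against one without it. WT and ume6∆ share their marker type, as do snf2∆ and ume6∆snf2∆.

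Genes on chromosome IX stood apart as a block in both libraries without Ume6, and 5 of the 94 genes lie there, RPL2B, RPL16A, RPL34B, RPL40A and RPS24B. The 215 genes of this chromosome that had a mean of at least 1 RPKM showed a median difference of 0.59 on the log2(RPKM + 1) scale in ume6∆ over WT, while the medians of the other 15 chromosomes lay between -0.45 and -0.21. In ume6∆snf2∆ over WT the chromosome IX median was 1.05, against -0.03 to 0.22 on the other chromosomes. In snf2∆ over WT it was -0.07, inside the range of the others, -0.18 to 0.00253. Chromosome IX was thus higher as a whole wherever a strain without UME6 was set against one with it, also among its 210 genes outside the described set, with medians of 0.56 over WT in ume6∆ and 1.04 in ume6∆snf2∆. The part of this block in the values of the 5 genes was not tested, and counts of changed genes are given with and without them.

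The R64 annotation places 84 introns in 82 of the 94 genes. The other 12 have none between their coding exons, among them both copies of RPL24, RPS25, RPS26 and RPS29, and RPL29 and RPL32, although the splicing table holds a line for each. Of the 84 introns, 67 begin with GTATGT, 10 with GTACGT, 4 with GTATGA, 2 with GTATGC and 1, in RPL20A, with GTGAGT. The branch sequence TACTAAC stands without mismatch in 80 introns. It is missing in this exact form from RPL19A, RPS21A and the first introns of RPL7A and RPL7B. The last bases are TAG in 46 introns and CAG in 38. Introns ranged from 147 bases in RPL2A to 561 in RPL27A, with a median of 409, and first coding exons from 1 to 309 bases, with a median of 19.

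The sequences below, read from the RefSeq R64 (sacCer3) genome, show the sites of the copies whose splicing differed most, and of RPL18B, whose splicing fraction differed most from WT in both single deletion strains. Each 5′ window holds 10 bases before the intron and 20 of intron with the first 6 intron bases in capitals, and each branch window holds the 7 branch bases in capitals with 10 bases on either side.
RPS21A 5′ splice site, chrXI:551671-551700, plus strand: gggccaattaGTATGTtcgagaaatctata
RPS21B 5′ splice site, chrX:157230-157259, minus strand: gggtcaattaGTACGTaaattatagcagat
RPS21B branch site, chrX:156805-156831, minus strand: agcgcaaatgTACTAACattgaataat
RPL16A 5′ splice site, chrIX:99366-99395, minus strand: gtcattgatgGTACGTaagattttgcacta
RPL16A branch site, chrIX:99142-99168, minus strand: taaaggataaTACTAACaaatccattt
RPL16B 5′ splice site, chrXIV:494954-494983, minus strand: gttattgatgGTACGTaaaaaatttctaat
RPL16B branch site, chrXIV:494539-494565, minus strand: gattagcattTACTAACtttatttttc
RPL13A 5′ splice site, chrIV:308418-308447, plus strand: tacacaatggGTATGTctactataaaataa
RPL13A branch site, chrIV:308738-308764, plus strand: cttttctgtaTACTAACaatttttaaa
RPL13B 5′ splice site, chrXIII:551184-551213, minus strand: gtaacaatggGTATGTtgaactgaagcaat
RPL13B branch site, chrXIII:550812-550838, minus strand: gaagcaaattTACTAACtgattttttt
RPL18B 5′ splice site, chrXIV:64431-64460, minus strand: ttcctagctcGTATGTattgaaatctccct
RPL18B branch site, chrXIV:64048-64074, minus strand: tttatcccttTACTAACataacgtaaa

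RPL2A has the shortest intron of the set and is given whole, with the 5′ splice site, the branch sequence and the last 3 bases in capitals.
RPL2A whole intron, chrVI:221268-221414, minus strand: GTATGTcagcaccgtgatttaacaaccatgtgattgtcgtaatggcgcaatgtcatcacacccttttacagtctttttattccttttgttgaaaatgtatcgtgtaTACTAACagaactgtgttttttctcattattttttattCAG

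Introns of ribosomal protein genes had a higher median splicing fraction than those of other genes in every library. The median splicing fraction of the 97 lines was 0.859 in WT, 0.874 in snf2∆, 0.863 in ume6∆ and 0.848 in ume6∆snf2∆, against medians of 0.604, 0.642, 0.613 and 0.636 for the introns of genes outside the family. Lines under 0.8 numbered 37 in WT, 33 in snf2∆, 38 in ume6∆ and 38 in ume6∆snf2∆. Among other genes, 179 of 193 introns were under 0.8 in WT. The values did not form 1 even spread, since 52 of the 97 lines lay from 0.8 to below 0.9 in WT and 37 were scattered from 0.418 to just under 0.8. The highest value was 0.914 in WT, for RPS19B, and 0.917 in snf2∆, so no intron of the set reached 1. How the authors computed the fraction is not given in the sources used here, so the distance from 1 cannot be read as an amount of pre-mRNA.

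**Figure D1:**
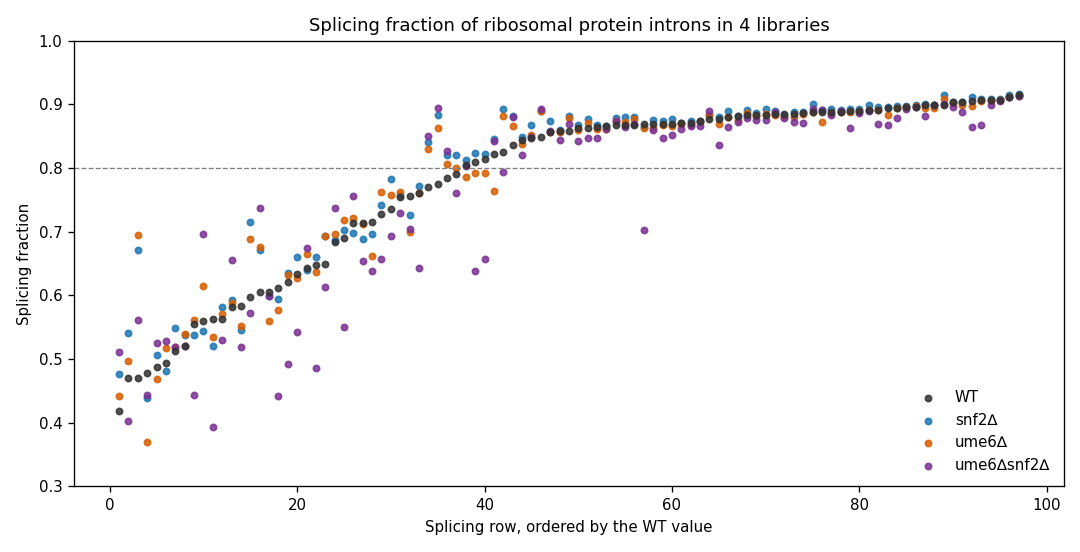
Splicing fraction (vertical axis) of the 97 intron lines of ribosomal protein genes, ordered along the horizontal axis by the WT value, with 1 point per line and library and a dashed line at 0.8. Most lines form a plateau above 0.8 where the 4 libraries nearly coincide, and the 37 lines under 0.8 in WT differ more between libraries.

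The same introns were poorly spliced in all strains. Of the 97 lines, 33 were under 0.8 in all 4 libraries, 54 were at or above it in all 4, and 10 crossed it. RPS21B (YJL136C), which encodes a protein of the small subunit, had the lowest WT value of the set, with 0.418 in WT, 0.476 in snf2∆, 0.442 in ume6∆ and 0.510 in ume6∆snf2∆. RPL16A (YIL133C), of the large subunit, had 0.488 in WT, 0.506 in snf2∆, 0.468 in ume6∆ and 0.525 in ume6∆snf2∆. RPL2A (YFR031C-A), which encodes a protein next to the peptidyl transferase centre, had 0.470 in WT, 0.540 in snf2∆, 0.497 in ume6∆ and 0.403 in ume6∆snf2∆. All 3 remained below 0.6 in each library, and RPL2A was at its lowest in ume6∆snf2∆. RPL18B, also at 0.470 in WT, was higher in each deletion strain. At the other end, RPS19B had 0.914 in WT, 0.917 in snf2∆, 0.913 in ume6∆ and 0.913 in ume6∆snf2∆, and RPL33A had 0.912 in WT, 0.914 in snf2∆, 0.911 in ume6∆ and 0.912 in ume6∆snf2∆, so that both stayed within a few thousandths of one value across libraries.

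The letters of the 5′ splice site went with the WT splicing fraction only in part. Among the 79 genes with 1 line and 1 annotated intron, the 10 with GTACGT had a median WT fraction of 0.601, and 7 of them were under 0.8. The 62 with GTATGT had a median of 0.869, with 22 under 0.8. The exceptions among the GTACGT genes were RPL16B, RPS19A and RPS19B, and RPS19B is the best spliced gene of the set in WT. The single GTGAGT intron, in RPL20A, had 0.868 in WT. Length said little: the rank correlation of the WT fraction with intron length was 0.149 across these 79 genes, and with first exon length 0.0275, both given as descriptions across genes of 1 library. The 12 genes without an annotated intron ranged from 0.649 to 0.892 in WT, with 2 under 0.8.

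RPL7A, RPL7B and RPS22B carry small nucleolar RNA genes inside introns (SNR39, SNR59 and SNR44), whose reads may be included in the RPKM of these 3 genes. Which of a gene's lines belongs to which intron is not given in the sources used here. RPS22B, a small subunit protein gene, had 0.757 in WT, 0.725 in snf2∆, 0.699 in ume6∆ and 0.704 in ume6∆snf2∆ in its first line and 0.478 in WT, 0.439 in snf2∆, 0.370 in ume6∆ and 0.444 in ume6∆snf2∆ in its second, so both lines were lower in the 3 deletion strains than in WT. The first line of RPL7B had 0.775 in WT, 0.883 in snf2∆, 0.863 in ume6∆ and 0.894 in ume6∆snf2∆, and was higher in the 3 deletion strains.

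The 94 genes were among the most abundant transcripts, with a median of 552 RPKM in WT, 732 in snf2∆, 1095 in ume6∆ and 780.3 in ume6∆snf2∆, against all-gene medians of 39.5, 35.9, 30.8 and 40.9. They held 6.69% of the summed RPKM in WT, 7.92% in snf2∆, 10.7% in ume6∆ and 8.32% in ume6∆snf2∆. The 36 ribosomal protein genes without a splicing line had higher medians in each library, with 1194 RPKM in WT and 2148 in ume6∆. RPS26A, whose protein sits at the mRNA exit of the small subunit, had the highest mean of the set, with 1386 RPKM in WT, 1579.6 in snf2∆, 1994 in ume6∆ and 2571 in ume6∆snf2∆. RPL18B had the lowest mean, with 103 RPKM in WT, 132 in snf2∆, 246 in ume6∆ and 130.0 in ume6∆snf2∆. Large and small subunit genes had like medians in WT, at 552 RPKM for the 53 RPL genes and 548 for the 40 RPS genes.

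The A and B copies of a protein were often present at unequal levels. In WT, 15 of the 43 pairs differed at least 2-fold in RPKM, with A the higher copy in 13 and B in 2. The count was 12 in snf2∆, 11 in ume6∆ and 17 in ume6∆snf2∆. RPS25A had 772 RPKM in WT and RPS25B 234, an A-over-B ratio of 3.30, and RPL43 was close to that, with a ratio of 3.29. RPL36 was the most unequal pair toward B, with RPL36A at 167 and RPL36B at 813 RPKM in WT and B-over-A ratios of 4.87 in WT, 4.52 in snf2∆, 4.35 in ume6∆ and 6.33 in ume6∆snf2∆. The RPS6 copies, by contrast, had 1055 and 1091 RPKM in WT, a B-over-A ratio of 1.03. The same copy was the higher one in all 4 libraries in 31 pairs, and the difference was at least 2-fold in all 4 in 7 of them, 5 toward A and 2 toward B. RPKM here is per length from gene start to end, intron included, and per exon length the WT count of unequal pairs was again 15. The coding sequences of a pair were 84.3% to 99.2% identical, with a median of 93.5%. How reads that match both copies were assigned is not given in the sources used here, so the split between copies is uncertain.

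**Figure D2:**
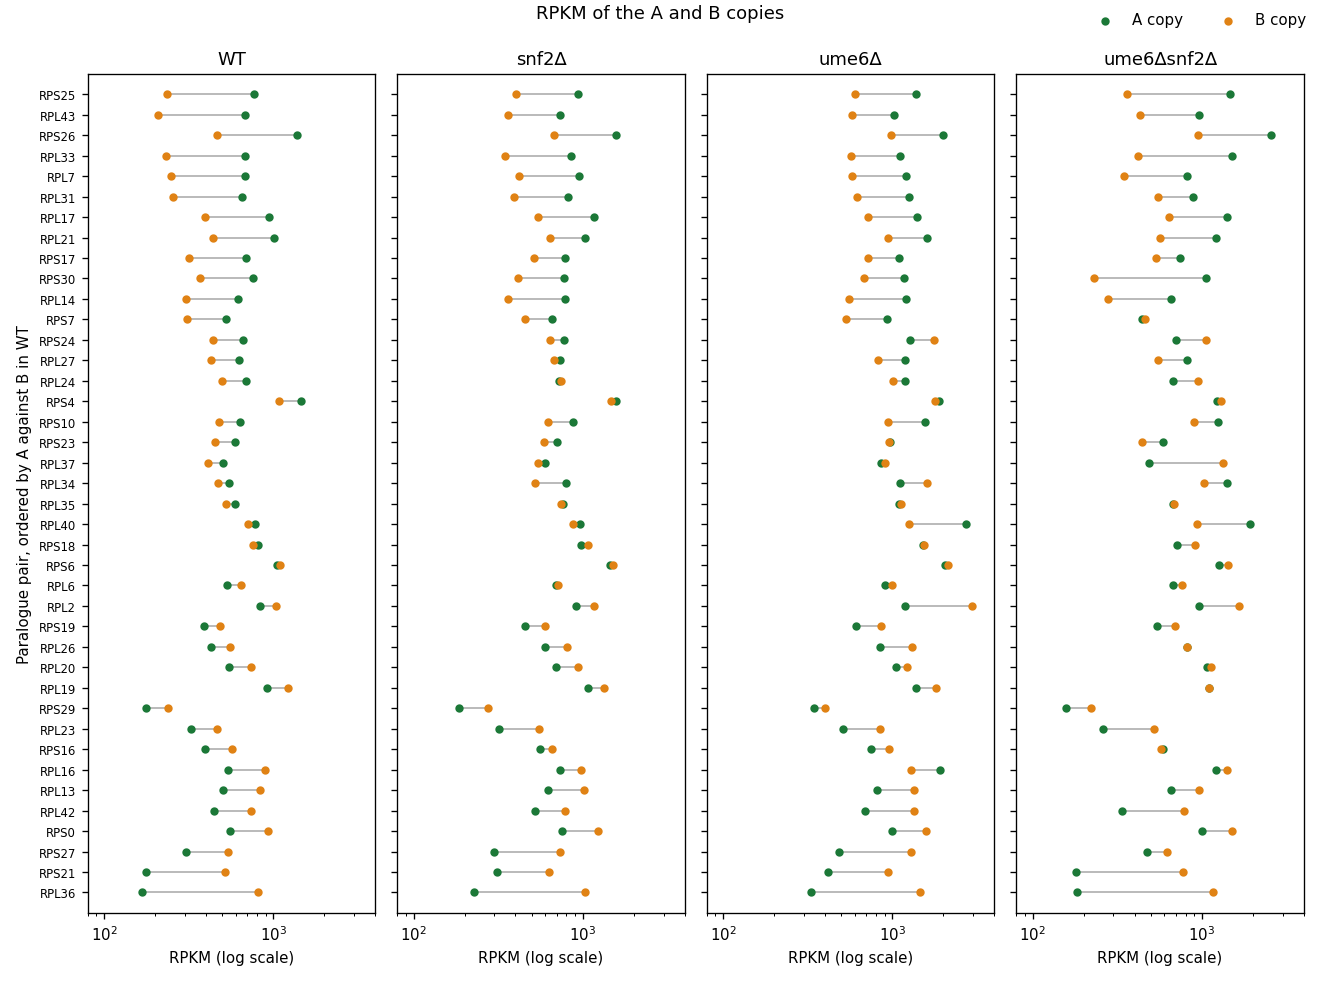
RPKM (horizontal axis, log scale) of the A copy (green) and B copy (orange) of 40 pairs in each of the 4 libraries, with pairs in the same order in every panel, from B higher in WT at the bottom to A higher at the top. RPS25 and RPL36 mark the ends of the order among the pairs drawn, with 772 and 234 RPKM for the A and B copies of RPS25 and 167 and 813 for those of RPL36 in WT.

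The sum of both copies varied less from protein to protein than single copies did. In WT the standard deviation of log2 RPKM was 0.50 over the 43 sums and 0.75 over the 86 single copies, and the same order held in snf2∆ (0.50 and 0.70), ume6∆ (0.51 and 0.69) and ume6∆snf2∆ (0.62 and 0.85). Sums in WT ran from 418 RPKM for RPS29 to 2539 for RPS4, a range of 6.08-fold against 14.1-fold for single copies. These are spreads across genes of 1 library each, not errors. A sum averages over its copies, so a narrower spread follows in part from summing, and how far was not tested.

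Splicing was unequal between copies as well. The fraction differed by at least 0.05 in 19 of 43 pairs in WT, 16 in snf2∆, 18 in ume6∆ and 22 in ume6∆snf2∆, with genes of several lines entered as the mean of their lines. In 14 pairs the difference held in all 4 libraries toward the same copy, B being better spliced in 11 (among them RPL2, RPL6, RPL7, RPL13, RPL16, RPL19, RPL42, RPS18, RPS29 and RPS30) and A in 3 (RPL26, RPL35 and RPS21). RPS21 was the most unequal pair in WT but not in the other libraries, and RPS21A had 0.863 in WT, 0.877 in snf2∆, 0.871 in ume6∆ and 0.847 in ume6∆snf2∆ where RPS21B had 0.418, 0.476, 0.442 and 0.510. RPL16B had 0.907 in WT, 0.908 in snf2∆, 0.905 in ume6∆ and 0.899 in ume6∆snf2∆ against 0.488, 0.506, 0.468 and 0.525 for RPL16A. RPL13B had 0.894 in WT, 0.896 in snf2∆, 0.884 in ume6∆ and 0.868 in ume6∆snf2∆, whereas RPL13A had 0.621 in WT, 0.635 in snf2∆, 0.633 in ume6∆ and 0.492 in ume6∆snf2∆. In each of these 3 pairs the lowest value of the better spliced copy was above the highest value of the other.

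Most unequal pairs shared the first 6 intron bases and the state of the branch sequence, as did most pairs of the set. Of the 38 pairs with an annotated intron in both copies, 32 had the same first 6 intron bases. Of these 32, RPL19 alone differed in the state of the branch sequence. Of the 14 pairs unequal in all libraries, 13 were annotated in both copies, and 11 of these had the same first 6 bases and the same state of the branch sequence. RPL7 is counted in the 11 because the first introns of both copies lack the exact sequence. The windows above show that RPL16A and RPL16B both begin with GTACGT and hold TACTAAC. RPL13A and RPL13B both begin with GTATGT and hold TACTAAC. The last intron bases differ in both pairs, with CAG in the A copies and TAG in the B copies. Which sequences go with the unequal splicing was not tested. The introns also differ in length, at 290 bases in RPL16A against 449 in RPL16B, and 147 in RPL2A against 400 in RPL2B. RPS21 is 1 of the 2 exceptions, with GTATGT and no exact branch sequence in the well spliced A copy, and GTACGT with TACTAAC in the poorly spliced B copy. In the 19 pairs that were unequal in WT, the more abundant copy was the better spliced one in 11 and the less abundant one in 8.

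**Figure D3:**
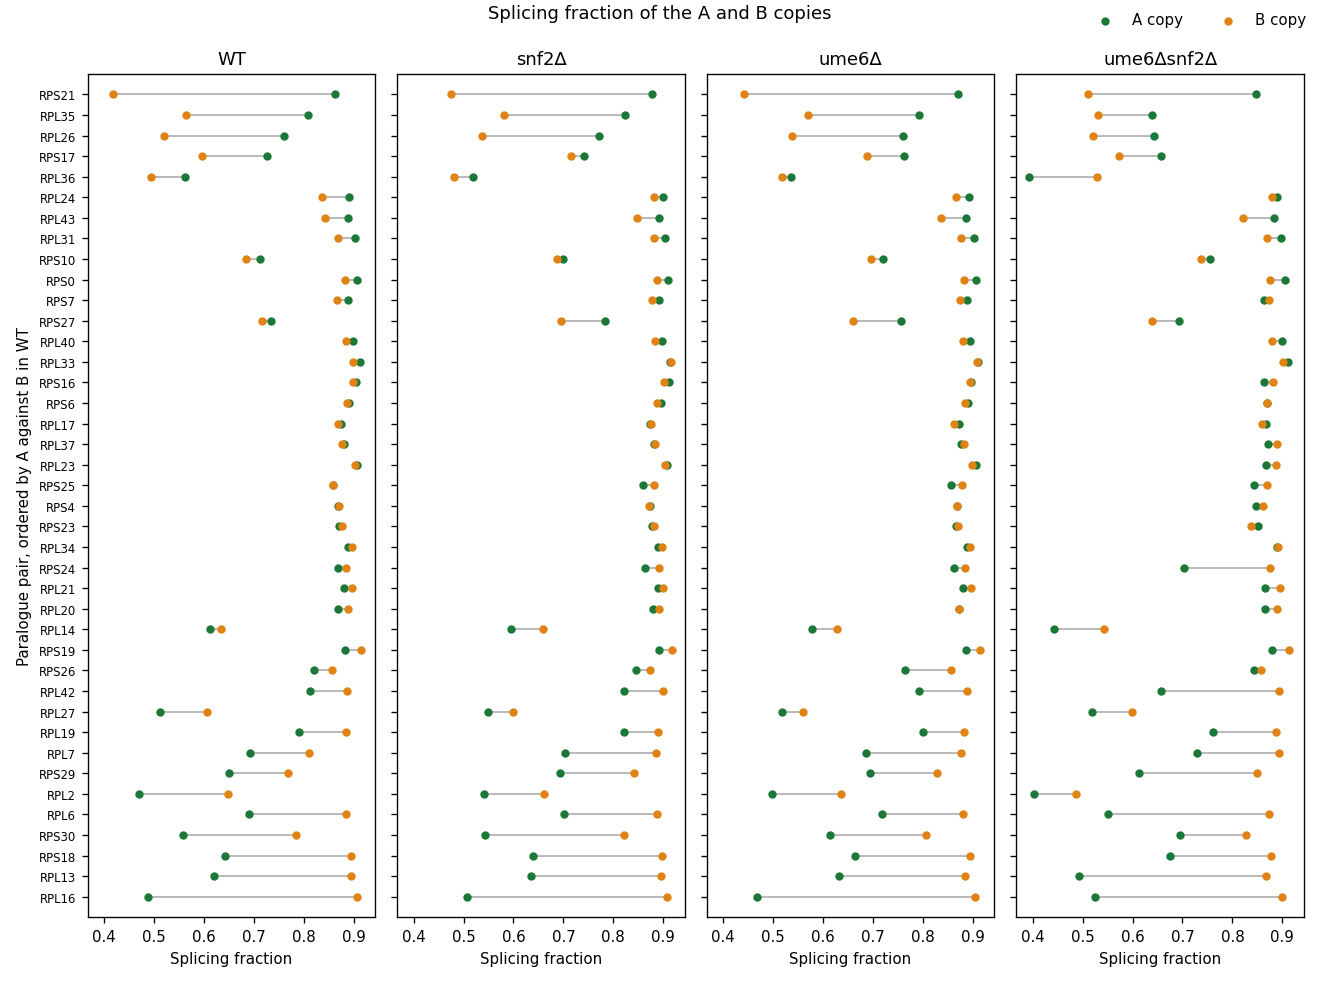
Splicing fraction (horizontal axis) of the A copy (green) and B copy (orange) of 40 pairs in the 4 libraries, ordered by the A minus B difference in WT. RPS21 (0.863 for A and 0.418 for B in WT) and RPL16 (0.488 and 0.907) lie at opposite ends of the order in all 4 panels.

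Without Snf2, no gene of the set changed 2-fold from WT, where 3.31% of all 6520 genes kept were higher and 7.96% lower. The median difference of the 94 genes was 0.33 on the log2(RPKM + 1) scale against -0.11 for all genes, and 91 of the 94 were above 0. All differences of level given below are on this scale. RPS21A (YKR057W, chromosome XI, 551657 to 552242) went from 176 RPKM in WT to 311 in snf2∆, a difference of 0.82 and a ratio of 1.77 with a counting interval of 1.69 to 1.85. RPL43B, of the large subunit, had 208 and 363, a difference of 0.80. Both genes were the lower copy of their pair in WT. RPS22B stood lowest, at 204 and 179 RPKM, a difference of -0.19. Ribosomal protein genes without a splicing line had a median of 0.39, and 2 of the 36 passed 2-fold upward and 0 downward. RPL43 was the 1 pair of 43 whose A to B ratio shifted at least 1.5-fold, by 1.63 toward B.

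Without Ume6 the whole set was at a higher level than in WT. Upward, 25 of the 94 passed 2-fold, and downward 0, where 4.59% of all genes were higher and 15.2% lower. The median was 0.85 against -0.30 for all genes, and all 94 genes were above 0. With each library scaled by its median ratio, 70 of the 94 were at least 2-fold higher, where 573 of all 6520 genes were. Without the 5 genes on chromosome IX the count was 20 of 89, with a median of 0.83, where 3.58% of all annotated genes on the other chromosomes were higher.

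The 5 largest rises in ume6∆ were the 5 genes on chromosome IX. RPS24B (YIL069C, chromosome IX, 231553 to 232369), of the small subunit, had 439 RPKM in WT, 638 in snf2∆, 1768 in ume6∆ and 1056 in ume6∆snf2∆, a rise of 2.01 in ume6∆ over WT and a ratio of 4.03 with a counting interval of 3.94 to 4.11. RPL40A, which encodes ubiquitin fused to a large subunit protein, had 783 RPKM in WT, 964 in snf2∆, 2738 in ume6∆ and 1928 in ume6∆snf2∆, a rise of 1.80. RPL16A had 543 RPKM in WT, 730.1 in snf2∆, 1909 in ume6∆ and 1203 in ume6∆snf2∆, a rise of 1.81, and the values of RPL34B (472 and 1605 RPKM, 1.76) and RPL2B (1032 and 2954 RPKM, 1.52) were of like size. All 5 were highest in ume6∆ and second highest in ume6∆snf2∆. They exceeded the chromosome IX median of 0.59 by 0.93 (RPL2B) to 1.42 (RPS24B), while the median of the other 89 genes exceeded that of all genes on the other chromosomes by 1.15. Measured against their own chromosome, RPL2B thus lay below 1.15. RPL34B (1.17), RPL40A (1.21), RPL16A (1.22) and RPS24B (1.42) lay above it. The partner copies on other chromosomes had smaller differences, 0.93 for RPS24A, 0.82 for RPL40B and 0.52 for RPL16B.

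Outside chromosome IX, the 5 largest rises in ume6∆ began from different WT levels. RPL43B rose from 208 to 578 RPKM (1.47), RPS25B from 234 to 602 (1.36) and RPL33B from 231 to 569 (1.29). RPS10A rose from 634 to 1555 (1.29), from a WT level above the set's median of 552, and RPL31B from 254 to 619.9 (1.28). Among the 43 pairs, both copies passed 2-fold in RPL34 alone, A by itself in 4 pairs and B by itself in 18. The copy that passed was the less abundant one in WT in 17 of these 22 pairs, a comparison that uses the WT library on both sides. Without pairs that have a gene on chromosome IX, the counts were 2 for A, 16 for B, and 15 of 18 for the less abundant copy. RPS22B showed the smallest difference, at 204 and 224 RPKM (0.13), and RPS4A had 1458 and 1893 (0.38). Among the ribosomal protein genes without a splicing line, 10 of 36 passed 2-fold upward and 0 downward, and their median was 0.77.

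With both genes deleted the set lay closer to WT, and more unevenly. Over WT, 10 of the 94 genes passed 2-fold upward and 0 downward, close to the 10.4% of all genes that were higher, while 9.97% were lower. The median was 0.35 against 0.06 for all genes. Of the 10, RPL16A, RPL34B, RPL40A and RPS24B are on chromosome IX, and without that chromosome 6 of 89 were higher, where 8.38% of all annotated genes were. RPL37B (YDR500C, chromosome IV, 1450198 to 1450853), of the large subunit, had 413 RPKM in WT, 541 in snf2∆, 899 in ume6∆ and 1324 in ume6∆snf2∆, a rise of 1.68 in ume6∆snf2∆ over WT and a ratio of 3.21 with a counting interval of 3.12 to 3.30. RPL34A had 549.8 RPKM in WT, 796 in snf2∆, 1103 in ume6∆ and 1415 in ume6∆snf2∆, a rise of 1.36. RPS30B (YOR182C, chromosome XV, 678191 to 678793) had 368 RPKM in WT, 417 in snf2∆, 682 in ume6∆ and 232 in ume6∆snf2∆, and its difference from WT was -0.66, the lowest of the set. The 3 genes lie on different chromosomes outside chromosome IX.

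Set against ume6∆, the double deletion had lower levels for most of the set. Of the 94, 10 were at least 2-fold lower than in ume6∆ and 0 higher, where 3.45% of all genes were lower and 11.1% higher. The median was -0.55 against 0.35 for all genes, and 84 of the 94 were below 0. With median ratio scaling, 41 of the 94 were lower and 0 higher, where 433 of all 6520 genes were lower and 331 higher. None of the 10 is on chromosome IX. RPS30B fell from 682 to 232 RPKM, by a ratio of 0.340 with a counting interval of 0.325 to 0.355 and a log2 difference of -1.55. RPL39, whose protein lines the exit tunnel of the large subunit, fell from 1054 to 414 (-1.34), and RPS21A from 419 to 180.1 (-1.21). RPL37B went the other way, at 899 and 1324 RPKM, a difference of 0.56 that was below 2-fold. In no pair did both copies pass 2-fold, with A lower by itself in 5 pairs and B in 3.

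Set against snf2∆, the double deletion left the median of the set at 0.02, with all genes at 0.14. RPL37B was the 1 gene that was at least 2-fold higher in ume6∆snf2∆ over snf2∆, at 541 and 1324 RPKM (1.29), and 0 were lower, where 8.13% of all genes were higher and 2.38% lower. With median ratio scaling 1 was higher and 1 lower, where 394 of all 6520 genes were higher and 234 lower. The 5 genes of chromosome IX had a median of 0.73, against -0.00169 for the other 89, and the chromosome itself had a median of 1.03 against 0.11 elsewhere. Most of the 5 comparisons share a library with each other, but snf2∆ over WT and ume6∆snf2∆ over ume6∆ share none. Between those 2, 82 of the 94 genes (87.2%) were above 0 in the first and below 0 in the second, where 8.59% of all 6520 genes were.

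**Figure D4:**
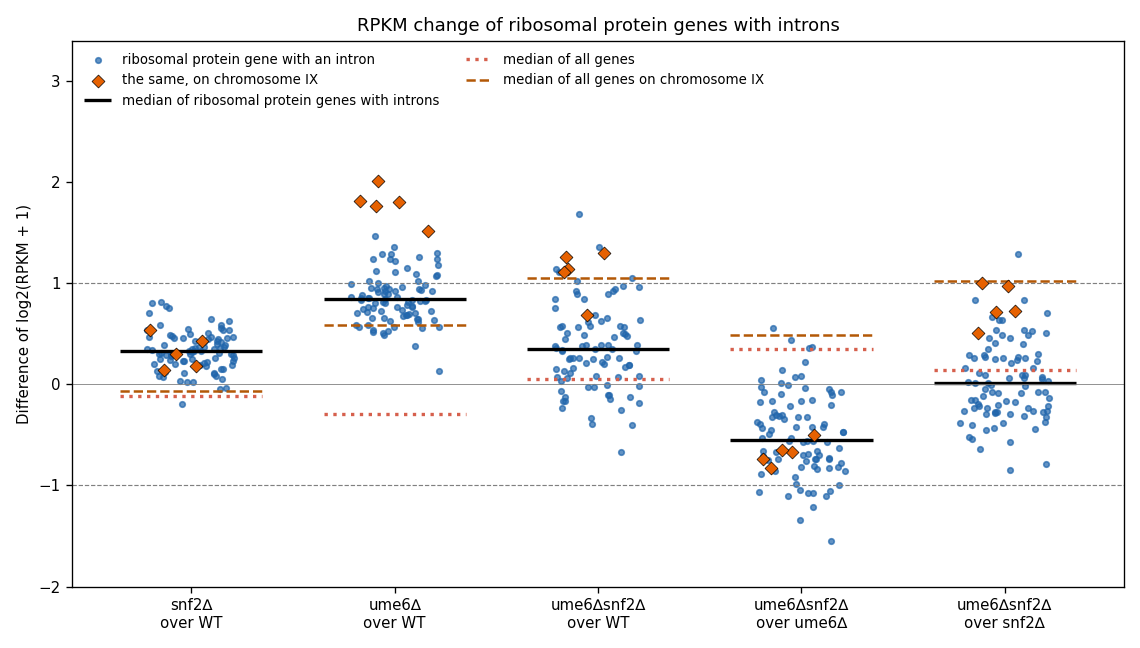
Difference of log2(RPKM + 1) (vertical axis) of each of the 94 genes in the 5 comparisons, with the 5 genes on chromosome IX as orange diamonds, the median of the set as a black line, the median of all genes dotted, that of all chromosome IX genes dashed, and thin dashed lines at 2-fold. The diamonds top the set in ume6∆ over WT, from 1.52 to 2.01, and the set lies below the median of all genes in ume6∆snf2∆ over ume6∆ (-0.55 against 0.35).

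The balance between copies moved with these changes. The A to B ratio shifted at least 1.5-fold in 9 of 43 pairs in ume6∆ over WT, 8 in ume6∆snf2∆ over WT, 11 in ume6∆snf2∆ over ume6∆ and 8 in ume6∆snf2∆ over snf2∆. The largest shifts in ume6∆ over WT were 2.45-fold toward A in RPL16, 2.11-fold toward B in RPS24, 2.01-fold toward B in RPL2 and 1.97-fold toward A in RPL40. Each of the 4 moved toward the copy on chromosome IX, and without the 5 pairs that have a gene there, 4 of 38 pairs shifted. RPL40 and RPS24 were also among the 8 pairs in ume6∆snf2∆ over WT and the 8 over snf2∆, again toward the chromosome IX copy. RPL16 and RPL34 were among the 11 pairs in ume6∆snf2∆ over ume6∆, both away from it. In ume6∆snf2∆ over WT, RPL37 shifted 3.35-fold toward B, and RPS30 shifted 2.20-fold toward A. Neither pair has a copy on chromosome IX. RPS30A had 760.2 RPKM in WT, 770.2 in snf2∆, 1172 in ume6∆ and 1055 in ume6∆snf2∆, so this shift came with a higher A copy and a lower B copy. Summed over both copies, 9 of 43 pairs were at least 2-fold higher in ume6∆ over WT and 2 in ume6∆snf2∆ over WT. The 9 include all 5 pairs with a gene on chromosome IX, and the 2 include RPL34, which has a gene there.

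When Snf2 alone was absent, the lines that moved by at least 0.05 all had a higher splicing fraction than in WT. In snf2∆ over WT, 8 of 97 lines were higher and 0 lower, where 21.8% of all lines with values were higher and 5.46% lower. The 8 lines were in RPL2A, RPL7B, RPL18B, RPL28, RPS13, RPS17B, RPS21B and RPS29B. RPL18B (YNL301C, chromosome XIV, 63570 to 64562) had 0.470 in WT, 0.671 in snf2∆, 0.694 in ume6∆ and 0.561 in ume6∆snf2∆, a difference of 0.20 in snf2∆ over WT. RPS17B, of the small subunit, had 0.597 in WT, 0.714 in snf2∆, 0.689 in ume6∆ and 0.572 in ume6∆snf2∆, a difference of 0.117. Both were highest in a single deletion strain and lower again in the double deletion. The median difference over the 97 lines was 0.00427. RPS17B and RPL18B had more RPKM in snf2∆ than in WT, at 316 and 515 and at 103 and 132, but so did 91 of the 94 genes.

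Without Ume6 the splicing of most lines stayed within 0.05 of WT. In ume6∆ over WT, 7 of 97 lines were higher and 4 lower, where 16.2% of all lines were higher and 8.78% lower, and the median difference was -0.000493. RPL18B differed most, by 0.224. RPL28, whose protein is the site of cycloheximide resistance mutations, had 0.605 in WT, 0.670 in snf2∆, 0.676 in ume6∆ and 0.737 in ume6∆snf2∆, and was higher than WT in all 3 deletion strains. The 4 lower lines were both lines of RPS22B, which were -0.0573 and -0.107 from WT, and the lines of RPS26A and RPS27B.

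Among the comparisons with WT, lines at least 0.05 lower were most frequent in the double deletion, in the set and among all lines. In ume6∆snf2∆ over WT, 17 of 97 lines were at least 0.05 lower and 8 higher, where 14.3% of all lines were lower and 23.8% higher. The share of lower lines in the set, 17.5%, was thus near that of all lines, which include the set. Among introns of genes outside the family, 12.6% were lower and 31.1% higher. Their median difference was 0.0149, against -0.00786 for the set. RPS24A (YER074W, chromosome V, 306323 to 307196) had 0.869 in WT, 0.864 in snf2∆, 0.863 in ume6∆ and 0.703 in ume6∆snf2∆, a difference of -0.166. RPL35A, a large subunit gene, had 0.809 in WT, 0.824 in snf2∆, 0.793 in ume6∆ and 0.638 in ume6∆snf2∆, a difference of -0.170. RPL36A had 0.562 in WT, 0.520 in snf2∆, 0.535 in ume6∆ and 0.393 in ume6∆snf2∆, a difference of -0.169, and RPL14A and RPL2B differed by -0.169 and -0.161. In RPS24A and RPL35A the other 3 libraries were close to each other, and the double deletion alone stood apart. RPS30A went the other way, with 0.559 in WT, 0.543 in snf2∆, 0.615 in ume6∆ and 0.696 in ume6∆snf2∆, a difference of 0.137. Of the 17 lower lines, 12 were among the 55 lines of RPL genes and 5 among the 41 lines of RPS genes. The median difference was -0.00634 over the RPL lines and -0.0159 over the RPS lines.

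The double deletion was also set against each single deletion. Against ume6∆, 19 lines were lower and 7 higher, where 13.9% of all lines were lower and 18.3% higher. Against snf2∆, 21 were lower and 4 higher, where 20.5% of all lines were lower and 13.3% higher, so the share of lower lines in the set, 21.6%, was near that of all lines. The median differences of the 97 lines were -0.00745 against ume6∆ and -0.0155 against snf2∆. Those of introns of genes outside the family were 0.00646 and -0.00395. RPL6A, of the large subunit, had 0.690 in WT, 0.702 in snf2∆, 0.719 in ume6∆ and 0.550 in ume6∆snf2∆ and differed by -0.169 from ume6∆, the largest such difference of the set. Lines that were under 0.8 in WT, a library that neither comparison uses, held most of the changes. Of these 37 lines, 15 were lower and 6 higher against ume6∆, and 17 were lower and 4 higher against snf2∆. Of the other 60 lines, 4 were lower in each comparison, and 1 and 0 were higher. The size of a change that a line can show also depends on its level, because values stop near 0.917.

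**Figure D5:**
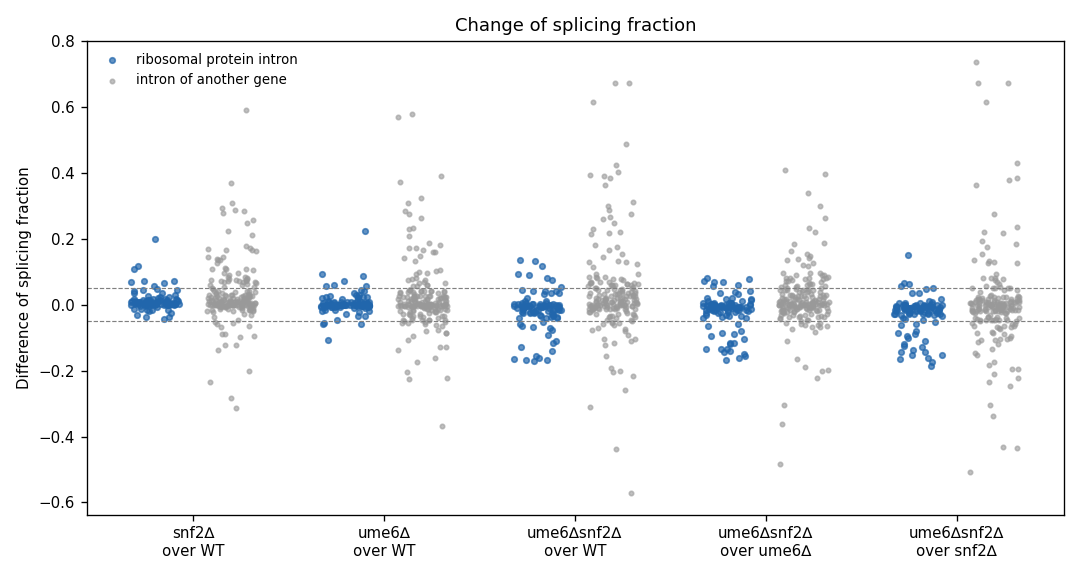
Difference of splicing fraction (vertical axis) in the 5 comparisons for the 97 lines of the set (blue) and the introns of genes outside the family (grey), with dashed lines at 0.05 in either direction. The blue points spread less than the grey ones, and those past the lower line number 0, 4, 17, 19 and 21 from left to right.

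Where splicing was lower in the double deletion, a drop of at least 0.05 was counted more often in 1 copy of a pair than in both. In ume6∆snf2∆ over WT both copies were at least 0.05 lower in 2 of the 43 pairs and 1 copy alone in 11. Against ume6∆ the counts were 4 and 9, and against snf2∆ they were 5 and 9. When few copies pass a threshold, single passes outnumber double ones even if copies are unrelated. These counts thus do not show whether copies drop together or apart, which was not tested. RPS24 is an example of a pair that became unequal, because RPS24A was at 0.703 in the double deletion while RPS24B remained at 0.876, and both copies were between 0.863 and 0.892 in the other 3 libraries. RPL36 turned from A being better spliced in WT, with A at 0.562 and B at 0.493, to B in the double deletion, with A at 0.393 and B at 0.528.

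Genes known to regulate the family passed 2-fold in 2 of the 5 comparisons. Of 14 such regulators, 2 were lower in ume6∆ over WT, where 15.2% of all genes were, and 2 were higher in ume6∆snf2∆ over ume6∆, where 11.1% of all genes were, so both counts were near the share of all genes. None changed in snf2∆ over WT, ume6∆snf2∆ over WT or ume6∆snf2∆ over snf2∆. HMO1, a high mobility group protein bound at many ribosomal protein promoters, had 365 RPKM in WT, 209 in snf2∆, 159 in ume6∆ and 203 in ume6∆snf2∆, so it was below WT in all 3 deletion strains and past 2-fold in ume6∆ (-1.19). TOR1, a kinase that couples nutrients to ribosome synthesis, had 54.2 RPKM in WT, 39.9 in snf2∆, 20.9 in ume6∆ and 35.4 in ume6∆snf2∆, and differed by -1.34 in ume6∆ over WT. CRF1, a corepressor, and SCH9, a kinase of the same pathway, were 1.06 and 1.06 higher in ume6∆snf2∆ over ume6∆. Of 10 genes for the decay of unspliced and intron RNA, 0 changed 2-fold in any of the 5 comparisons.

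The core letters of the Ume6 site, GGCGGC, searched on both strands from 250 bases before to 50 after each coding start, were in 4 of the 94 genes (RPL26B, RPL43A, RPS16A and RPS19A). That is 4.26%, against 5.12% of 6020 protein-coding genes. RPL26B was among the 25 genes that passed 2-fold in ume6∆ over WT, and the other 3 were not. A match in letters is not evidence of a bound site, and no match says only that these letters are not in this window.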

How the data were processed

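Total RNA of 4 strains, 1 library each, was prepared by hot phenol extraction with DNase and the TruSeq V2 kit, per the labels' protocols. The submitters' processing notes name sacCer3, CASAVA and STAR 2.4.0. The deposited values used were RPKM per gene and the authors' splicing fraction per intron line, while the formula of the fraction and the counting step behind RPKM are not stated in the labels. Names and introns came from the R64 annotation, which matched 5986 of the 6659 genes, and 3 lines that name no gene were left out. RPKM times gene length gave whole reads (within 0.05) for 99.5% to 99.6% of values, with gene reads of 16.7 to 28.6 M per library. In the splicing table, 1 to 4 lines per library held no number, none of them in the described set.

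Differences were taken on log2(RPKM + 1) over the 6520 genes whose mean reached 1 RPKM, and counted at 2-fold, splicing differences at 0.05, and shifts of a pair's ratio at 1.5-fold. With 1 library per strain no test was run, and the counting step was tested on simulated data. Python 3.11.15, pandas 2.3.3, numpy 2.4.6, scipy 1.17.1, Biopython 1.88 and matplotlib 3.10.9 were used. The set of genes and all lists were chosen with earlier results of these data known, and the analysis without chromosome IX was added after seeing the data. Genes were named by rule: extremes of level, of splicing, of each change and of each pair measure, genes with several splicing lines, small nucleolar RNA genes in introns or other splice or branch letters, and listed regulators past 2-fold. Results for a few genes are not reported here, and 3 of the 43 pairs are not drawn. Other settings were a pseudocount of 0.1 or 5, no filter, median ratio scaling, exon length, the lowest line per gene and other thresholds.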

Additional observations from a re-analysis of the deposited data

Results flagged for a closer look

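In 4 introns the splicing fraction moved in opposite directions when Snf2 was lost from cells with Ume6 (snf2∆ over WT) and from cells without it (ume6∆snf2∆ over ume6∆), by at least 0.05 each time. The 2 comparisons share no library, but each rests on 1 library per strain, so the difference between them was not tested. RPL18B was 0.20 in the first and -0.133 in the second. RPS17B was 0.117 and -0.116. RPL2A was 0.0709 and -0.0938, and RPS13, a small subunit gene without a second copy, was 0.0682 and -0.0877. Among all 97 lines, 67 had differences of opposite sign in the 2 comparisons, 59 of them above 0 in the first and below 0 in the second. Over the 292 lines of the table with a value in every library, 150 had opposite signs, 112 of them in that order. Of the 292, 18 passed 0.05 both times in opposite directions, against 4 of the 97. The set's share of such lines was thus not higher than that of all lines. As shares, 69.1% of the set's lines and 51.4% of all lines had opposite signs. Mating type markers differ between the libraries of both comparisons in the same way, and their part in these values was not tested.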

How the results depend on the processing

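Of 89 recomputed counts, 46 remained within 1.5 times the reported one, 43 did not, and 0 changed direction. In the order snf2∆, ume6∆ and ume6∆snf2∆ over WT, then ume6∆snf2∆ over ume6∆ and over snf2∆, counting RPKM at 1.5-fold gave 7, 82, 28, 42 and 14 changed genes. Of these, 7, 82, 27, 0 and 11 were higher and 0, 0, 1, 42 and 3 lower. Of all 6520 genes, 604, 708, 1426, 2088 and 1309 were higher and 1232, 2153, 1250, 500 and 488 lower. In the same order, a splicing difference of 0.02 gave 24, 27, 50, 43 and 47 changed lines. One of 0.1 gave 3, 2, 13, 13 and 14, and a 2-fold change of 1 minus the fraction gave 0, 0, 2, 1 and 2. That last quantity cannot be read as an amount of pre-mRNA, and shares of all lines at these settings are not given. Pair shifts numbered 11, 20, 23, 19 and 19 at a lower threshold, and at 2-fold 0, 3, 3, 4 and 3. Median ratio scaling gave 70 changed genes in ume6∆ over WT, 41 in ume6∆snf2∆ over ume6∆ and 2 in ume6∆snf2∆ over snf2∆, where a pseudocount of 0.1 also gave 2. The scaling moves the median of all genes by about the amount by which it moves the set. Without chromosome IX, 6 genes changed in ume6∆snf2∆ over WT and 4 pairs shifted in ume6∆ over WT. Lines under 0.9 numbered 89 in WT, 87 in snf2∆, 90 in ume6∆ and 93 in ume6∆snf2∆. Pairs unequal at 1.5-fold numbered 20 in snf2∆ and 25 in ume6∆, and pairs whose splicing differed by 0.02 numbered 26 in snf2∆. Where only the threshold changed, the counts follow from that threshold, and otherwise the cause was not tested. Of 855 values of 57 named genes under other pseudocounts and scaling, 582 stayed within counting error, 273 moved beyond it and 0 of those past 2-fold changed sign.

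No paired analysis was possible because each strain has 1 library. Depth does not limit the RPKM of these genes, which had 472 reads or more each, but the reads behind a splicing fraction are unknown, so no interval can be given for it. Strand was not marked, and the difference between strains cannot be separated from that between single cultures.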
